A study of Schizosaccharomyces pombe with 8 samples.

Results

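The enzymes that remove superoxide and peroxide were followed in fission yeast, Schizosaccharomyces pombe, exposed to nitric oxide. The set consists of 9 genes chosen by name from known function, with earlier results of these data known. They are sod1 (SPAC821.10C), ctt1 (SPCC757.07C), gpx1 (SPBC32F12.03C), tpx1 (SPCC576.03C), srx1 (SPBC106.02C), trx1 (SPAC7D4.07C), trr1 (SPBC3F6.03), gcs1 (SPAC22F3.10C) and pgr1 (SPBC17A3.07). All 9 had a single named probe set on the Affymetrix yeast array and were read among 2896 S. pombe genes. The study compared cells lacking pap1 with wild type cells, each after active or decomposed donor, on 8 arrays, 2 for each of 4 groups.

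The groups were pap1 deletion treated, pap1 deletion control, wild type treated and wild type control. The pap1 deletion is a single strain, AV25 (h- pap1::kanMX6), and the wild type is 972h-. All cells were grown in yeast extract medium and moved to phosphate-buffered saline, so every group, controls included, was without growth medium during the exposure. Treated cells received detaNONOate at 3 mM, a donor whose slow decay sets nitric oxide free, and were shaken at 30 °C for 15 min. For control cells a donor solution that had already decomposed was used at the same concentration. Arrays of 1 group are labelled as biological replicates, and control and treated cells are said to come from 1 shared flask. Beyond that wording nothing says that the replicates were separate cultures, so the p-values measure only the spread between these arrays, which may be partly technical. With 2 arrays a group, their number limits how precise any value is.

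Superoxide dismutase turns superoxide into hydrogen peroxide. Catalase breaks hydrogen peroxide down directly, while peroxidases reduce it with electrons drawn from thioredoxin or glutathione, and thioredoxin reductase and glutathione reductase renew these carriers from NADPH. In fission yeast the peroxiredoxin Tpx1 also carries the peroxide signal to Pap1, a bZIP transcription factor that then accumulates in the nucleus, and ctt1, srx1 and trr1 are known targets of Pap1 after peroxide. The design set both strains side by side to find responses to nitric oxide that rest on Pap1.

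The deleted gene was read first. The pap1 probe set gave 2.14 and 2.20 in pap1 deletion treated arrays and 2.33 and 2.35 in pap1 deletion control arrays, against 10.11 and 10.09 in wild type treated arrays and 9.90 and 9.93 in wild type control arrays (log2 expression). All 4 deletion arrays lay under the background level of 3.41, the 95th percentile of the array's S. cerevisiae probe sets, so label and signal went together in all 8 arrays. The 9 enzyme genes had values between 10.09 and 12.73, well above background, and no array read any probe set above 13.75, so the values lie in the upper part of the measured scale. The largest gap between replicate arrays of an enzyme gene was 0.11, for ctt1.

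The signal balance along control transcripts was not the same in treated and control arrays. The 3' minus the 5' signal, as the median over 7 S. pombe control transcripts, was 2.64 ± 0.12 in pap1 deletion treated arrays and 1.65 ± 0.01 in pap1 deletion control arrays, and 3.35 ± 0.02 in wild type treated and 1.34 ± 0.08 in wild type control arrays (log2, mean ± SD, n = 2 each). The shift of this median with treatment was 0.99 in the deletion and 2.01 in wild type. In each strain the balance was higher in treated arrays for 6 of the 7 transcripts, by 0.66 to 1.66 in the deletion and by 1.06 to 3.55 in wild type, and lower for TFIID, by -1.01 in the deletion and -1.59 in wild type. The balance moved with every treatment comparison below. It also differed between the strains, lower in the deletion among treated arrays and higher in the deletion among control arrays. Its part in any of these comparisons was not tested.

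Nitric oxide treatment was followed by lower transcript levels for most of these enzymes, and trx1 was the member that rose in both strains. In pap1 deletion cells 5 of 9 fell (sod1, srx1, ctt1, gpx1 and tpx1), 2 rose (trx1 and pgr1) and 2 did not pass the test (trr1 and gcs1), with a median change of -0.27. In wild type cells 8 of 9 fell and trx1 rose, with a median change of -0.26. In RNA from whole cultures a lower level in every cell and fewer cells with the transcript cannot be told apart. A gene is said to have changed at an adjusted p under 0.05 in limma, a linear model fitted to all genes, with the Benjamini-Hochberg adjustment over all 2896 genes. Such calls were common on these arrays: 62.4% of all genes passed in the deletion and 80.2% in wild type. Rises made up 35.5% and falls 26.9% of all genes in the deletion, and 40.5% and 39.7% in wild type, and the median change of all genes was 0.047 in the deletion and 0.017 in wild type. With a change of at least 1.5-fold asked for as well, 3 members passed in the deletion (srx1, sod1 and ctt1), beside 14.3% of all genes, and 1 in wild type (ctt1), beside 39.4%. The median size of change without regard to sign was 0.27 for the members and 0.24 for all genes in the deletion, and 0.27 and 0.45 in wild type.

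**Figure D1:**
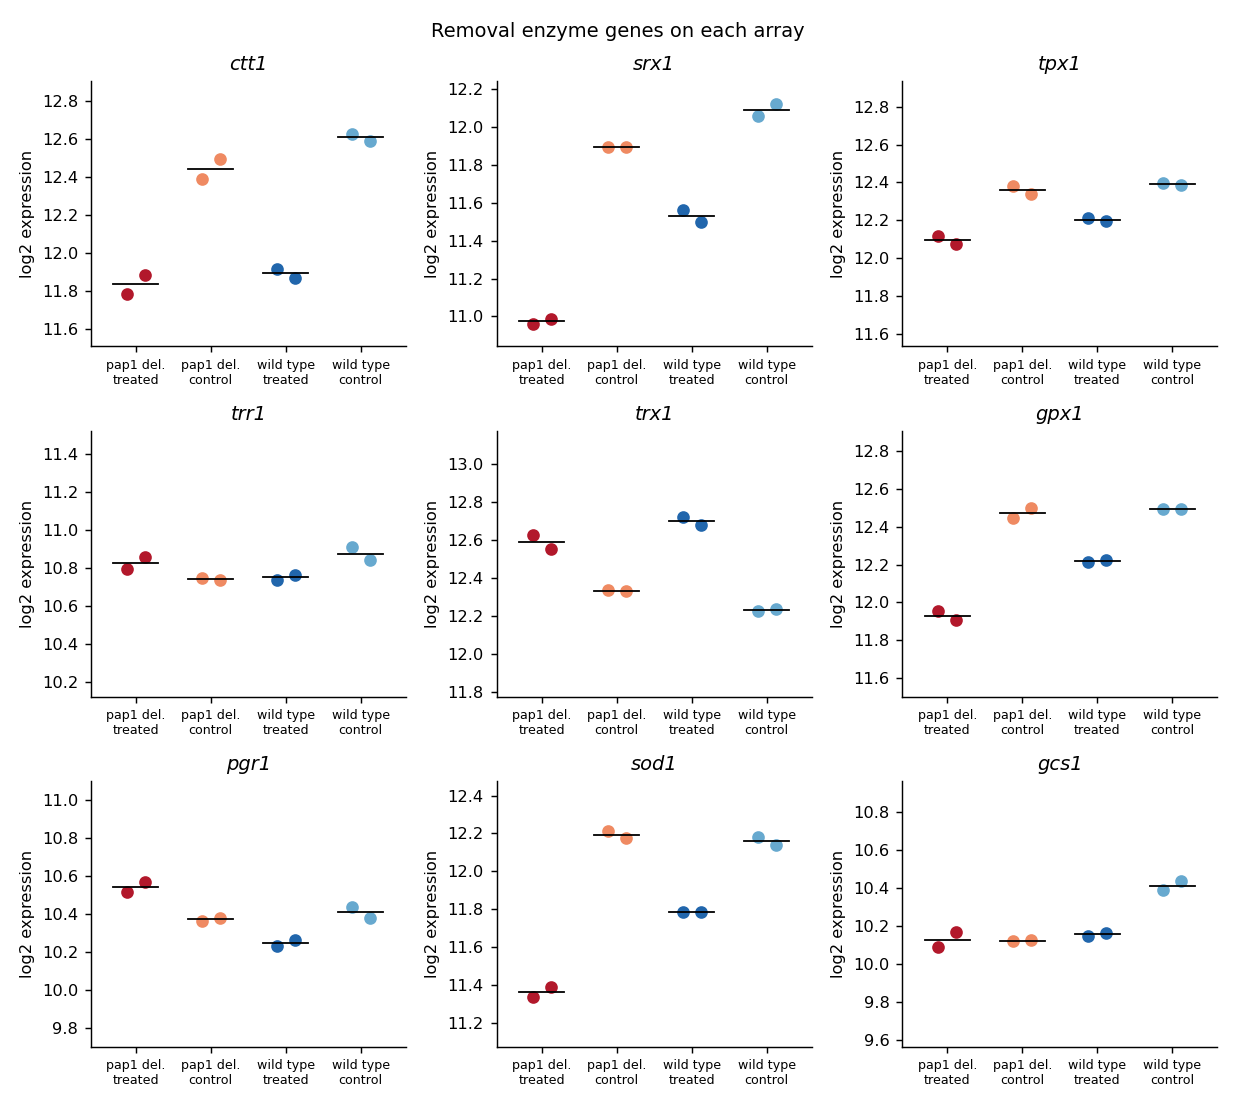
Log2 expression of the 9 removal enzyme genes on each of the 8 arrays (points) with the group mean (line), in pap1 deletion treated, pap1 deletion control, wild type treated and wild type control cells; every panel spans the same height. The treated arrays of ctt1, srx1, sod1 and gpx1 lie below the control arrays in both strains and those of trx1 lie above.

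The first step of the pathway, superoxide removal, was measured through sod1, the copper-zinc superoxide dismutase. Its probe set read 11.34 and 11.39 in pap1 deletion treated arrays against 12.21 and 12.17 in pap1 deletion control arrays, and 11.79 and 11.78 in wild type treated arrays against 12.18 and 12.14 in wild type control arrays. In both strains all treated arrays lay below all control arrays, and the deletion treated arrays were the lowest of the 8. The gene fell by 1.78-fold in the deletion (log2 -0.83 ± 0.04, SE, n = 2 per group, limma adjusted p = 9.1e-06) and by 1.30-fold in wild type (-0.38 ± 0.04, adjusted p = 1.1e-04), where quantile normalization gave -0.23. The fall was larger in the deletion by -0.45 ± 0.06 (adjusted p of the difference 6.0e-04). Among all genes, 4.07% had a lower change than sod1 in the deletion and 30.1% in wild type.

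Catalase, ctt1, was the most reduced member in wild type cells. It read 11.78 and 11.89 in pap1 deletion treated arrays against 12.39 and 12.49 in pap1 deletion control arrays, and 11.92 and 11.87 in wild type treated arrays against 12.63 and 12.59 in wild type control arrays. The treated arrays of both strains came down to one range and did not overlap with any control array. The fall was 1.52-fold in the deletion (-0.61 ± 0.06, adjusted p = 1.1e-04) and 1.64-fold in wild type (-0.72 ± 0.06, adjusted p = 1.4e-05). The difference between these responses, 0.11, did not pass (adjusted p = 0.256), with an interval from -0.074 to 0.30. Among all genes, 7.91% changed to a lower value than ctt1 in the deletion and 18.4% in wild type.

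The glutathione peroxidase gene gpx1, whose product reduces peroxides, went down in both strains and further in the deletion. It read 11.95 and 11.91 in pap1 deletion treated arrays against 12.45 and 12.50 in pap1 deletion control arrays, and 12.22 in both wild type treated arrays against 12.49 in both wild type control arrays. Control arrays of the strains overlapped, while the deletion treated arrays stood below the wild type treated arrays. The gene fell by 1.45-fold in the deletion (-0.54 ± 0.04, adjusted p = 4.8e-05) and by 1.21-fold in wild type (-0.27 ± 0.04, adjusted p = 5.0e-04). The responses differed by -0.27 ± 0.06 (adjusted p = 0.00621).

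The peroxiredoxin cycle joins 4 of the genes: tpx1 for the peroxiredoxin itself, srx1 for sulfiredoxin, which repairs Tpx1 once peroxide has overoxidised it, trx1 for the cytosolic thioredoxin that reduces Tpx1, and trr1 for the reductase that renews thioredoxin. They did not move together. In both strains srx1 and tpx1 fell and trx1 rose, and trr1 moved little.

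Sulfiredoxin had the largest fall of any member. The srx1 probe set read 10.96 and 10.99 in pap1 deletion treated arrays against 11.89 in both pap1 deletion control arrays, and 11.56 and 11.50 in wild type treated arrays against 12.06 and 12.12 in wild type control arrays. Its 4 groups did not overlap at all, and they stood in the order deletion treated, wild type treated, deletion control and wild type control, low to high. The gene fell by 1.89-fold in the deletion (-0.92 ± 0.04, adjusted p = 8.0e-06) and by 1.47-fold in wild type (-0.56 ± 0.04, adjusted p = 1.6e-05). The extra fall in the deletion was -0.36 ± 0.06 (adjusted p = 0.00244). In the deletion 3.04% of all genes had a lower change, and in wild type 23.3%.

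The peroxiredoxin gene tpx1 changed less. It read 12.12 and 12.08 in pap1 deletion treated arrays against 12.38 and 12.34 in pap1 deletion control arrays, and 12.21 and 12.20 in wild type treated arrays against 12.39 in both wild type control arrays. The treated arrays lay below the control arrays in each strain. The fall was 1.20-fold in the deletion (-0.27 ± 0.04, adjusted p = 0.00102) and 1.14-fold in wild type (-0.19 ± 0.04, adjusted p = 0.00341). With each array centred on its median gene the wild type value was -0.10 and no longer passed (adjusted p = 0.0866). The responses differed by -0.079, which did not pass (adjusted p = 0.264, interval from -0.21 to 0.054).

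Thioredoxin went the other way. The trx1 probe set read 12.63 and 12.55 in pap1 deletion treated arrays against 12.34 and 12.33 in pap1 deletion control arrays, and 12.73 and 12.68 in wild type treated arrays against 12.23 and 12.24 in wild type control arrays. Every treated array lay above every control array, across strains as well as within them. The rise was 1.19-fold in the deletion (0.26 ± 0.04, adjusted p = 0.00177) and 1.39-fold in wild type (0.47 ± 0.04, adjusted p = 3.5e-05). Of all genes, 26.7% had a higher change in the deletion and 22.0% in wild type. The rise was smaller in the deletion by -0.22 ± 0.06 (adjusted p = 0.0190), a call that was lost without either control array of either strain (adjusted p from 0.0529 to 0.0612).

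Thioredoxin reductase, trr1, had the narrowest range of the 9 genes, 0.17 over the 8 arrays. It read 10.79 and 10.86 in pap1 deletion treated arrays against 10.75 and 10.74 in pap1 deletion control arrays, and 10.74 and 10.77 in wild type treated arrays against 10.91 and 10.84 in wild type control arrays. The wild type control arrays were the highest on average, and the deletion treated arrays overlapped with them. The change was 0.083 in the deletion (adjusted p = 0.146, interval from -0.023 to 0.19) and -0.12 ± 0.05 in wild type (adjusted p = 0.0369). The wild type value was no longer past the threshold after centring (-0.038) or quantile normalization (-0.0032), with the replicate block (adjusted p = 0.0614), with only the 4 arrays compared (0.0649), or without wild type control array 1, either wild type treated array or either deletion control array (adjusted p from 0.0618 to 0.201). The difference between the responses, 0.21 ± 0.06 (adjusted p = 0.0264), was lost after centring (0.12) and quantile normalization (0.052). It was also lost without wild type control array 1, wild type treated array 1, either deletion control array or deletion treated array 2 (adjusted p from 0.0589 to 0.0951).

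**Figure D2:**
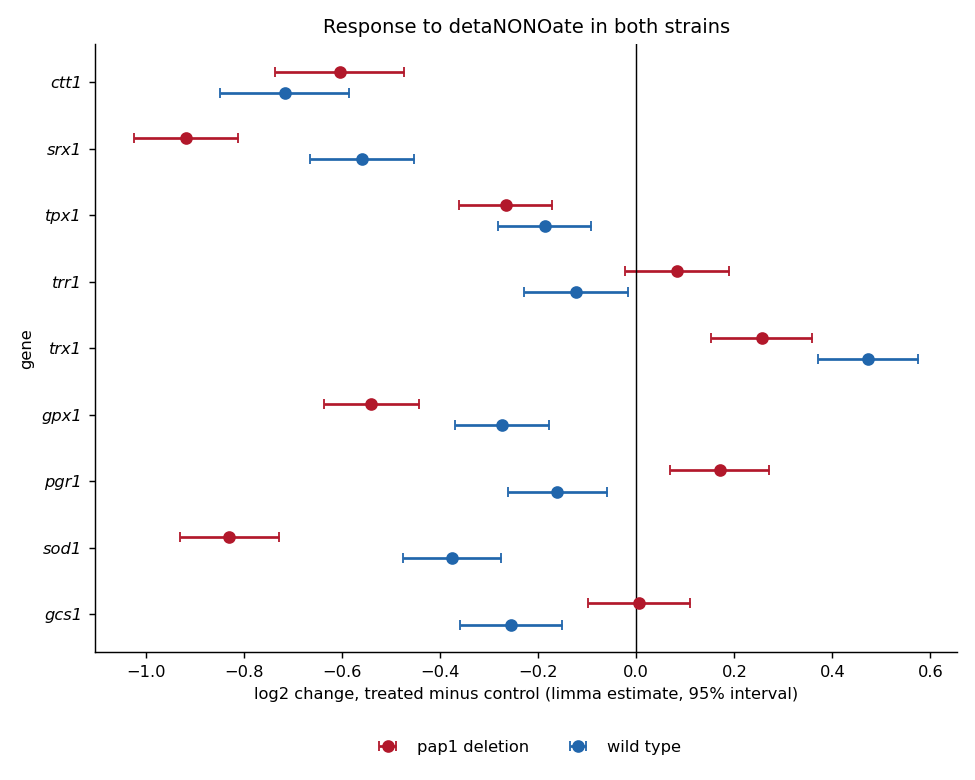
Log2 change of each removal enzyme gene, treated minus control, in the pap1 deletion (red, upper point of each pair) and in wild type (blue, lower point), as limma estimates with 95% intervals, 2 arrays per group. The falls of srx1 (-0.92 and -0.56), sod1 (-0.83 and -0.38) and gpx1 (-0.54 and -0.27) were larger in the deletion, while pgr1 lay above 0 in the deletion and below 0 in wild type.

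Glutathione was represented by gcs1, the glutamate-cysteine ligase that carries out the first step of its synthesis, and pgr1, the glutathione reductase that renews it. Both changed little in size, and in different ways in the 2 strains. The gcs1 probe set read 10.09 and 10.17 in pap1 deletion treated arrays against 10.12 in both pap1 deletion control arrays, and 10.15 and 10.16 in wild type treated arrays against 10.39 and 10.44 in wild type control arrays. The wild type control arrays stood apart, above the other 6. The change in the deletion was 0.0056 (adjusted p = 0.916, interval from -0.099 to 0.11), and in wild type gcs1 fell by 1.19-fold (-0.26 ± 0.04, adjusted p = 0.00111). The responses differed by 0.26 ± 0.06 (adjusted p = 0.00949). After quantile normalization neither the wild type value (-0.041, adjusted p = 0.379) nor the difference (0.11, adjusted p = 0.149) passed.

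For pgr1 the strains moved in opposite directions. It read 10.52 and 10.57 in pap1 deletion treated arrays against 10.37 and 10.38 in pap1 deletion control arrays, and 10.23 and 10.26 in wild type treated arrays against 10.44 and 10.38 in wild type control arrays. The deletion treated arrays were the highest of the 8 and the wild type treated arrays the lowest. The gene rose by 1.12-fold in the deletion (0.17 ± 0.04, adjusted p = 0.0108) and fell by 1.12-fold in wild type (-0.16 ± 0.04, adjusted p = 0.00963), a difference of 0.33 ± 0.06 (adjusted p = 0.00286). The rise in the deletion was no longer past the threshold without deletion control array 1 (adjusted p = 0.0597) or deletion treated array 2 (0.0520). The wild type fall was lost without wild type control array 1 (adjusted p = 0.0706) and after centring (-0.076, adjusted p = 0.139). After quantile normalization the wild type value was 0.032, on the other side of 0, and the difference 0.16 (adjusted p = 0.0582).

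**Figure D3:**
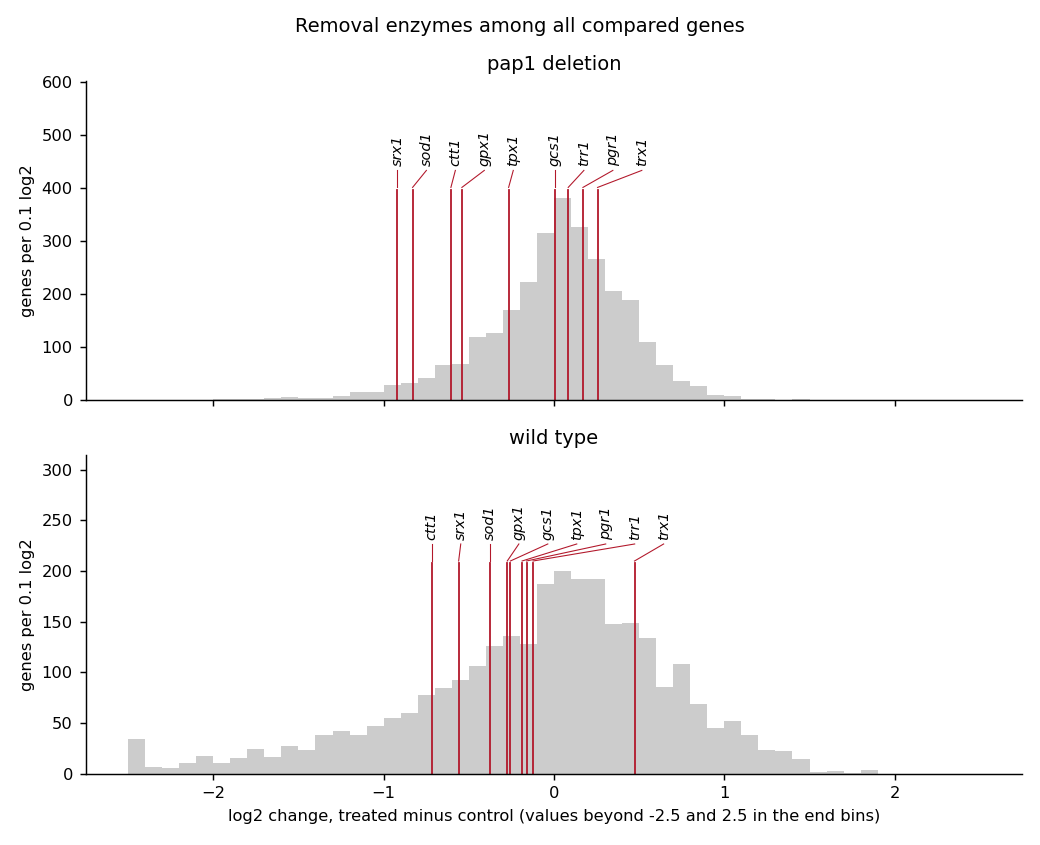
Distribution of the log2 change, treated minus control, of all 2896 genes (grey bars, genes per bin) in the pap1 deletion (top) and wild type (bottom), with the 9 removal enzyme genes as red lines. In the deletion srx1, sod1, ctt1 and gpx1 lie in the lower tail, and in wild type the 9 lie between -0.72 and 0.47.

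The comparison of responses asked whether loss of Pap1 changes what nitric oxide does to these genes. Of the 9 members, 7 passed the test of the difference, beside 59.1% of all genes. Relative to wild type the deletion response was lower for 4 (sod1, srx1, gpx1 and trx1) and higher for 3 (pgr1, gcs1 and trr1), beside 25.1% and 33.9% of all genes. That balance of all genes turned with scaling: 983 genes were higher and 728 lower as deposited, against 845 and 940 after centring and 810 and 975 after quantile normalization. With a difference of at least 1.5-fold asked for as well, 0 of 9 passed, beside 23.6% of all genes. The larger falls of sod1, srx1 and gpx1 in the deletion held their direction and their side of the threshold under all 14 alternatives run.

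The strains were also compared without active donor. There the median size of difference without regard to sign was 0.10 for the members and 0.098 for all genes. The 3' to 5' balance was 1.65 in deletion control arrays and 1.34 in wild type control arrays, and its part in this comparison was not tested. In control cells 2 of 9 members were lower in the deletion and 0 were higher, beside 9.15% of all genes called lower, 8.22% called higher and 17.4% in either direction. By the looser rule of an unadjusted limma p under 0.05, 5 of the 9 passed. The share of all genes by that looser rule was not counted, so the 5 cannot be set against the shares above. Over all genes 238 were higher and 265 lower as deposited, against 335 and 249 after centring. The called genes were gcs1 (-0.29 ± 0.04, adjusted p = 0.00794) and srx1 (-0.19 ± 0.04, adjusted p = 0.0285), both from the arrays given above. Leaving out any of the 4 control arrays ended the srx1 call (adjusted p from 0.0843 to 0.153), as did the replicate block (0.0555). The gcs1 call was lost without wild type control array 2 or either deletion control array (adjusted p from 0.0539 to 0.0648). The known Pap1 targets ctt1 (-0.17, adjusted p = 0.0829, interval from -0.30 to -0.037) and trr1 (-0.13, adjusted p = 0.0872, interval from -0.24 to -0.027) did not pass over all genes. For ctt1 quantile normalization (adjusted p = 0.0380) and a mean-variance trend (0.00477) brought the value past the threshold, and for trr1 the trend did (0.0169). The trend also brought trx1 past it, as higher in the deletion (0.10, adjusted p = 0.0165). The interval ran from -0.067 to 0.13 for sod1, from -0.12 to 0.075 for gpx1, from -0.12 to 0.065 for tpx1 and from -0.14 to 0.065 for pgr1.

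The same comparison in treated cells asked how the strains stood under active donor. In treated cells 4 of 9 members were lower in the deletion (srx1, sod1, gpx1 and tpx1) and pgr1 was higher, beside 26.5% of all genes called lower, 39.3% called higher and 65.8% in either direction. Here too the balance of all genes depended on scaling, with 1139 higher and 766 lower as deposited, 1001 and 940 after centring, and 913 and 1020 after quantile normalization. The members' values share their arrays with the responses above. The 3' to 5' balance was 2.64 in deletion treated arrays and 3.35 in wild type treated arrays, and its part in this comparison was not tested. The largest was srx1, 1.47-fold lower (-0.55 ± 0.04, adjusted p = 4.3e-05), then sod1, 1.34-fold lower (-0.42 ± 0.04, adjusted p = 1.1e-04) and gpx1, 1.22-fold lower (-0.29 ± 0.04, adjusted p = 6.4e-04). Glutathione reductase pgr1 was 1.23-fold higher (0.30 ± 0.04, adjusted p = 7.0e-04), and by 0.14 after quantile normalization (adjusted p = 0.0283). Peroxiredoxin tpx1 was lower by -0.11 ± 0.04 (adjusted p = 0.0454; -0.17 after centring), a call that did not hold without any 1 of the 8 arrays (adjusted p from 0.0556 to 0.152), with the replicate block (0.0662) or with only the 4 arrays compared (0.137). The catalase gene ctt1 (-0.056, interval from -0.19 to 0.076), trr1 (0.073, from -0.033 to 0.18), gcs1 (-0.029, from -0.13 to 0.076) and trx1 (-0.11, adjusted p = 0.0525) did not pass. Centring (-0.18), the mean-variance trend or leaving out deletion treated array 1 (-0.15) brought trx1 past the threshold, and quantile normalization did so for gcs1 (-0.17).

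**Figure D4:**
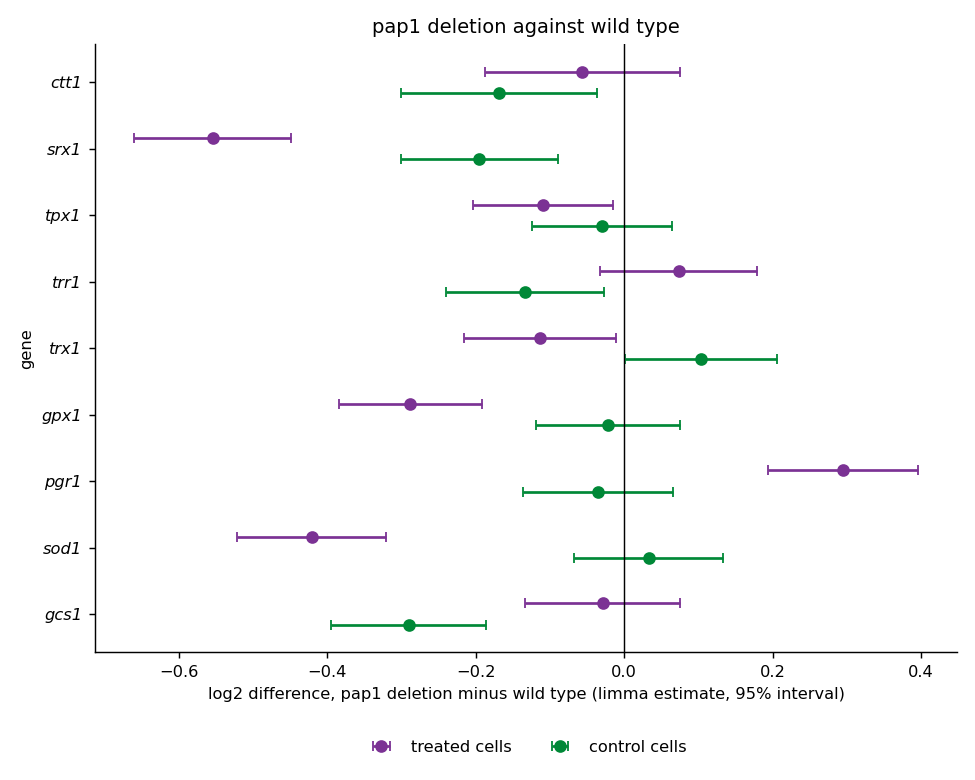
Log2 difference of each removal enzyme gene, pap1 deletion minus wild type, in treated cells (purple, upper point of each pair) and control cells (green, lower point), as limma estimates with 95% intervals, 2 arrays per group. In treated cells srx1 (-0.55), sod1 (-0.42) and gpx1 (-0.29) were lower in the deletion and pgr1 (0.30) higher, and in control cells gcs1 (-0.29) stood farthest from 0.

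The genes with the most similar pattern over the 8 arrays were sought among genes with a range of at least 1. For ctt1 these were mug35 (r = 0.996), lsd90 (r = 0.995) and isp3 (r = 0.994). The sporulation gene isp3 averaged 4.76 in pap1 deletion treated and 6.32 in pap1 deletion control arrays, and 4.89 in wild type treated and 6.97 in wild type control arrays, the same order of groups as ctt1. For srx1 they were pst1 (r = 0.997), spt2 (r = 0.994) and mug143 (r = 0.989). The most similar genes to trr1 reached r = 0.735 (amt1), 0.696 (cut4) and 0.646 (vps1301). Each r is over the same 8 arrays, which fall into 4 groups, and is given as a description.

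Genes of related redox chemistry, other Pap1 targets and regulators of the oxidative stress response were read from 6 lists. The lists were drawn up from textbook knowledge, with earlier results of these data known. Of 55 listed genes 36 were named on the array, and the rest were not analysed here. In pap1 deletion cells 8 of the 36 rose and 15 fell, while 13 did not pass, with a median change of -0.088. In wild type cells 5 rose and 26 fell, while 5 did not pass, with a median of -0.41. Of these, the 12 measured regulators gave 8 falls and 1 rise in the deletion, and 11 falls and 1 rise in wild type. Over all genes the shares were 35.5% higher and 26.9% lower in the deletion, and 40.5% and 39.7% in wild type, and each list count below stands beside these shares.

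Of the other thioredoxin and superoxide genes, 3 of 9 listed were measured. In the deletion trx2, the mitochondrial thioredoxin, rose and the other two did not pass, and in wild type all 3 fell. The trx2 probe set read 8.88 and 8.91 in pap1 deletion treated arrays against 8.62 and 8.57 in pap1 deletion control arrays, and 8.60 in both wild type treated arrays against 8.95 and 8.97 in wild type control arrays. Treated arrays thus lay above control arrays in the deletion (0.30 ± 0.04, adjusted p = 5.3e-04) and below them in wild type (-0.36 ± 0.04, adjusted p = 9.9e-05), unlike trx1. The copper chaperone of superoxide dismutase, ccs1, changed by 0.11 in the deletion, which did not pass, and fell by 1.66-fold in wild type (-0.73 ± 0.06, adjusted p = 1.6e-05). For ccs1 and sod1, the chaperone and the enzyme it loads, the strain with the larger fall was therefore not the same: the difference between responses was 0.84 for ccs1 (adjusted p = 1.7e-04) and -0.45 for sod1.

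In the glutathione list, with 12 of 16 listed genes measured, the deletion had 3 that rose and 2 that fell, while 7 did not pass (median 0.0071), and wild type had 4 that rose and 5 that fell, while 3 did not pass (median -0.079). Both grx4 and grx3, which encode monothiol glutaredoxins, rose in either strain. The grx3 rise was 1.74-fold in the deletion (0.80 ± 0.06, adjusted p = 6.3e-05) and 2.42-fold in wild type (1.28 ± 0.06, adjusted p = 1.6e-06). It was smaller in the deletion by -0.48 ± 0.09 (adjusted p = 0.00356), while the estimate for grx4 was larger there. The grx4 probe set read 9.65 and 9.70 in pap1 deletion treated arrays against 8.48 and 8.53 in pap1 deletion control arrays, and 9.29 and 9.36 in wild type treated arrays against 8.47 and 8.48 in wild type control arrays. That is a rise of 2.25-fold in the deletion (1.17 ± 0.05, adjusted p = 4.3e-06) and of 0.85 on the log2 scale in wild type (adjusted p = 2.0e-06), larger than any rise among the 9 enzymes. The glutathione transferase gst3 fell by 2.80-fold in the deletion (-1.49 ± 0.05, adjusted p = 3.3e-06) and by 3.56-fold in wild type (-1.83 ± 0.05, adjusted p = 1.3e-07).

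NADPH, the electron source of both reductases, comes in part from the pentose phosphate pathway. Of its supply genes 4 of 8 were measured; 2 rose and 2 fell in the deletion, and 2 fell and 2 did not pass in wild type. Glucose-6-phosphate dehydrogenase zwf1 fell by 1.26-fold in the deletion (-0.33 ± 0.06, adjusted p = 0.00234) and by 1.53-fold in wild type (-0.61 ± 0.06, adjusted p = 4.7e-05). The transaldolase tal1 fell by 2.70-fold in wild type (-1.43 ± 0.04, adjusted p = 1.8e-07), with a difference of 1.30 between the responses (adjusted p = 1.8e-05). The mitochondrial NADH kinase pos5 rose by 2.10-fold in the deletion (1.07 ± 0.11, adjusted p = 1.5e-04). In wild type its change, 0.13, did not pass (adjusted p = 0.298), and the responses differed by 0.94 (adjusted p = 0.00152). Its signal was low, between 4.48 and 6.05 over the arrays, with a gap of up to 0.29 between replicates.

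Other known Pap1 targets differed widely in how far they stood from wild type without Pap1. In control cells the glutathione transferase gst2 read 4.79 and 4.55 in the deletion against 8.80 and 8.83 in wild type, 17.7-fold lower (-4.15 ± 0.15, adjusted p = 1.3e-05). Its signal in the deletion was low, with the background level at 3.41, and its deletion treated replicates were 0.47 apart. The size of this fold is therefore uncertain. The flavoprotein obr1 read 10.05 in both deletion control arrays against 11.76 and 11.72 in wild type control arrays, 3.24-fold lower (-1.70 ± 0.04, adjusted p = 1.3e-06). Of the 6 listed targets, all measured, 3 were lower in deletion control cells and 3 did not pass, beside 9.15% of all genes called lower, with a list median of -0.19. The third called gene was bfr1, an ABC transporter gene (-0.22 ± 0.04, adjusted p = 0.0125). The values that did not pass were -0.16 for gst3, -0.071 for zta1 and 0.042 for caf5. The largest member value in control cells, -0.29 for gcs1, thus lay between obr1 and bfr1. Under treatment 1 of the 6 rose, 3 fell and 2 did not pass in the deletion, and all 6 fell in wild type (median -0.86).

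Of the regulators of the oxidative stress response other than pap1, 12 of 13 were measured. In the deletion 1 rose and 8 fell, while 3 did not pass (median -0.29), and in wild type 1 rose and the other 11 fell (median -0.53). The response regulator prr1, which acts with Pap1 on ctt1 and trr1, read 10.27 and 10.38 in pap1 deletion treated arrays against 10.45 and 10.39 in pap1 deletion control arrays, and 10.32 and 10.35 in wild type treated arrays against 10.54 and 10.52 in wild type control arrays. It fell in wild type (-0.20 ± 0.05, adjusted p = 0.00902), and its change in the deletion, -0.097, did not pass (adjusted p = 0.142). The bZIP factor atf1, which also acts on ctt1 and gpx1, fell by 3.00-fold in the deletion (adjusted p = 7.6e-06) and by 3.28-fold in wild type (adjusted p = 7.9e-07), and its partner pcr1 by 3.10-fold and 4.93-fold. From the list for nitric oxide and nitrosothiol removal only the sulfide oxidoreductase hmt2 was measured, 1 of 5; it fell by 0.16 in the deletion (adjusted p = 0.0116) and by 0.39 in wild type (adjusted p = 7.4e-05) on the log2 scale.

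**Figure D5:**
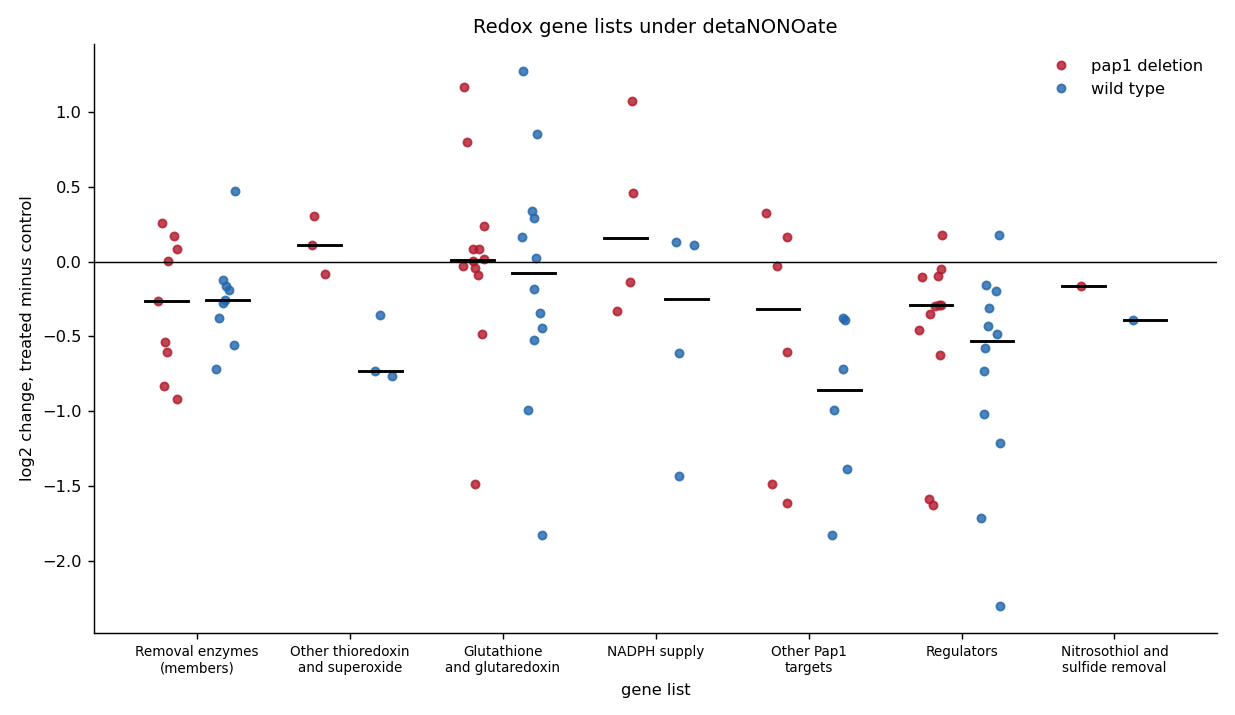
Log2 change, treated minus control, of single genes (points) in the pap1 deletion (red, left) and wild type (blue, right) for the 9 removal enzymes and 6 wider lists, with list medians as black lines; gst2 and gst3 stand in 2 lists. The removal enzymes had medians of -0.27 and -0.26, and the other thioredoxin and superoxide genes medians of 0.11 and -0.73.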

How the data were processed

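Biotin-labelled RNA of 8 S. pombe samples was measured on Affymetrix yeast arrays. The deposited values are log2 expression per probe set, made by the authors with RMA per the submitters' processing notes; its version and settings are not given in the sources used here. They were used without further scaling. Of 10928 probe sets, 2914 were named with 1 S. pombe gene through the platform annotation and the RefSeq gene table (ASM294v3), 5390 had no gene and 20 had several. For 14 genes with several probe sets the one with the highest mean was used, which left 2896 genes.

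Groups and replicate numbers came from the sample titles. Fits used R 4.3.3 and limma 3.58.1 (lmFit with 1 mean per group, eBayes without trend, all 8 arrays, 4 residual and 3.07 prior degrees of freedom), and the steps were checked on simulated data. Calls were made at a Benjamini-Hochberg adjusted p under 0.05 over all genes, and SE and 95% intervals are limma's. The 5 comparisons were treated against control in each strain, the difference of these responses, and, for control cells and for treated cells, pap1 deletion against wild type. Named were the 9 members and pap1, up to 3 genes per wider list and comparison with the largest called change (part of these are given), and the 3 most similar genes for ctt1, srx1 and trr1. Values of prr1, ccs1, hmt2, gst3, zta1 and caf5 outside that rule, and grx4 and pos5 in wild type, were chosen after their values were seen. The members and lists were chosen with earlier results of these data known. The alternatives were centring, quantile normalization, a variance trend, a background filter, averaged probe sets, a replicate block, only the 4 arrays compared and leaving out each array. Averaging probe sets cannot change a member's level, since each has 1.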

Additional observations from a re-analysis of the deposited data

Results flagged for a closer look

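The responses of 7 of the 9 genes to detaNONOate differed between the strains in the interaction test of limma (pap1 deletion minus wild type, log2, adjusted p under 0.05), beside 59.1% of all genes. The deletion response was lower for sod1 (-0.45), srx1 (-0.36), gpx1 (-0.27) and trx1 (-0.22). It was higher for pgr1 (0.33), gcs1 (0.26) and trr1 (0.21). The 3' to 5' balance of control transcripts, as a median over 7, shifted by 0.99 in the deletion and 2.01 in wild type, and its part in these differences was not tested.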

How the results depend on the processing

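Of 30 calls of enzyme genes over the 5 comparisons, 18 kept direction and side of the threshold under every alternative run. No such count was made over all genes, and several alternatives leave a member's value as it is and can move only its p-value. The count is therefore given as a description. The calls kept were ctt1, srx1, sod1, gpx1 and trx1 in wild type, the same 5 and tpx1 in the deletion, the response differences of srx1, sod1 and gpx1, and srx1, sod1, gpx1 and pgr1 in treated cells.

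In wild type the count of enzyme genes that fell, 8, was 5 after centring and 5 after quantile normalization, where pgr1 stood at 0.032 and 8 genes of the wider lists rose. Of all genes 1149 fell in wild type as deposited, 1039 after centring and 1023 after quantile normalization. After quantile normalization 0 enzyme genes had a higher response in the deletion (2 by centring, 3 in the fit without scaling), and in treated cells trr1 stood at -0.069. Between the strains in control cells the calls were the least stable. With a mean-variance trend 1 enzyme gene was higher and 4 lower, 1 and 17 of the wider lists, and 367 of all genes were higher. With only the 4 arrays compared 1 and 17 genes of the wider lists were called, and 386 and 401 of all genes. Centring and quantile normalization each called 1 gene of the wider lists higher.

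With the replicate block, the comparison of strains in control cells called 1 enzyme gene lower and 0 higher. Of all genes it called 156 higher and 210 lower. The replicate numbers were not taken to pair samples, as deviations of same-numbered arrays correlated between -0.26 and 0.06 over genes. In the deletion a block with crossed numbers, chosen after seeing the data, called 1029 genes higher and 773 lower. The cause of these changes was not tested.

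Leaving out 1 array gave 6 to 8 enzyme genes lower in wild type, 1 to 2 higher in the deletion, and 0 to 2 lower in control cells. In control cells 24 to 320 of all genes were then higher and 83 to 340 lower, and 0 to 1 genes of the wider lists higher and 5 to 14 lower, with 3 to 6 of the wider lists lower in the response difference. Uncalled values crossed 0 for gcs1 in the deletion (-0.033 to 0.044) and in treated cells (-0.067 to 0.010), and for gpx1 in control cells (-0.048 to 0.0048). Where the array left out belongs to the comparison, its group's lone array is assumed to vary like the others.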
